A study of Mus musculus with 9 samples.

Results

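The accessibility of 9 genes of adrenergic signalling and catecholamine synthesis was followed in heart muscle cells of CD1 mice: the receptor genes Adrb1, Adrb3, Adra1a and Adra1b, the adenylyl cyclase genes Adcy5 and Adcy6, the kinase gene Prkaca, and the enzyme genes Th and Dbh. They were chosen by symbol, and all 9 had a row among the 33844 regions of the deposited transcription start site (TSS) table. The assay was ATAC-seq, which reads where a transposase can reach the DNA, in 3 libraries each from mice aged 1 day (P1), 14 days (P14) and 56 days (P56). A sample pooled 12 hearts at P1, while the older stages used 6 to 7, and the nuclei were sorted for Pcm1, which marks heart muscle nuclei. No stage carried a labelled allele or drug. Surgery is mentioned in the labels, and whether it was done on these animals is not given there.

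Noradrenaline from sympathetic nerves and adrenaline from the adrenal medulla raise the rate and force of the heartbeat. Beta receptors couple through a stimulatory G protein to adenylyl cyclase, which makes cyclic AMP. Cyclic AMP frees the catalytic subunit of protein kinase A, which phosphorylates calcium channels, troponin I and phospholamban. Alpha-1 receptors couple instead to phospholipase C. Tyrosine hydroxylase and dopamine beta-hydroxylase carry out the first and a late step of catecholamine synthesis, mainly in sympathetic neurons and chromaffin cells.

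Upstream sequences from RefSeq (GRCm38.p6) are shown for 4 of the genes because they stand on either side of a contrast in the peak data. A deposited peak covers the start of Adrb1 and the first start of Prkaca, and none covers the start of Th or Dbh. Each is the 250 bases before the annotated start, written 5′ to 3′ on the gene's own strand. Capitals mark matches on either strand to TGACG (the core of the cyclic AMP response element, or CRE, whose full form is TGACGTCA), CCAAT (the CCAAT box) and GGGCGG (the GC box). The windows are chr19:56721867-56722116 for Adrb1, chr8:83972728-83972977 for Prkaca and chr2:27165257-27165506 for Dbh, all on the plus strand, and chr7:142899996-142900245 for Th, on the minus strand.
Adrb1: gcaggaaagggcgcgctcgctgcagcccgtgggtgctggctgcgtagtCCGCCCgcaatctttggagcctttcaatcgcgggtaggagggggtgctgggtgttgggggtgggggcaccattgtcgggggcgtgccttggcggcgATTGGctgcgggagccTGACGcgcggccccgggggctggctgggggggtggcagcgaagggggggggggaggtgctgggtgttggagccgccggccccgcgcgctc
Prkaca: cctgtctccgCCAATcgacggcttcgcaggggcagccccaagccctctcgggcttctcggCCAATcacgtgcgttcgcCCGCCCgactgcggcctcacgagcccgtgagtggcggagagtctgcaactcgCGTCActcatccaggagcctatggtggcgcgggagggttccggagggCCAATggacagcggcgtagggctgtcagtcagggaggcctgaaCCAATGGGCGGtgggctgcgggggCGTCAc
Th: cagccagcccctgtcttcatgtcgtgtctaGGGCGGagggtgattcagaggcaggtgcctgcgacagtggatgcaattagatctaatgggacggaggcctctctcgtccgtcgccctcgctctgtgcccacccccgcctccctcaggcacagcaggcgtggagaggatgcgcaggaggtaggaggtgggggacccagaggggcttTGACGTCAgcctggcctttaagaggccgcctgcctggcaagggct
Dbh: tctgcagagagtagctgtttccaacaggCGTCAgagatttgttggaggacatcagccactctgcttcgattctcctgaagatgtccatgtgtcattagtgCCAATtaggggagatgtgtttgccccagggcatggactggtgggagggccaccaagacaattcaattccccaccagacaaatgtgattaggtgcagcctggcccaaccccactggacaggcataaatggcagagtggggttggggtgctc

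The sequences of Adrb1 and Prkaca were richer in G+C and in CpG pairs than that of Dbh, and Th lay between. The G+C share was 74.0% for Adrb1, 68.8% for Prkaca, 64.4% for Th and 53.2% for Dbh, against a median of 52.4% over 32841 RefSeq starts. The observed over expected CpG ratio was 0.781 for Adrb1, 0.848 for Prkaca, 0.506 for Th and 0.115 for Dbh. The second start of Prkaca, not shown but also under a peak, was near Dbh, at 50.8% and a ratio of 0.124. Of these 4, Th alone held the full CRE, which starts at position -45 from its start site. That 8-letter match was present in 1.55% of all starts. Prkaca held 4 CCAAT boxes, 2 GC boxes and 2 CRE cores. Adrb1 held 1 of each. A match is a description of letters, not evidence that a factor binds there.

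P14 was the shallowest stage, with 481217 to 893032 TSS counts per library. P1 libraries had 1414979 to 2167369 and P56 libraries 874639 to 1468352. Each of the 9 genes had 6 to 185 reads in a library. Levels are given as CPM, counts divided by the library's TMM-scaled total and set to a common size. The share of TSS counts that fell in the top 10% of regions ranged over 31.9 to 33.0% in P1 libraries, 34.1 to 35.3% in those of P14 and 35.5 to 36.8% in those of P56. The same share for peaks was lowest in P1 replicate 1 (24.1%) and highest in P56 replicate 2 (29.8%), and these libraries stood apart at several of the genes below. No pair of replicates held the same counts. The summed CPM of 8 cardiomyocyte markers spanned 458 to 991 in P1 libraries, 720 to 894 in P14 and 865 to 2194 in P56 libraries, and 5 of the 8 passed the test of P56 against P1 as higher. Of 47 marker genes of other cell types in the table none passed it and none was at 0 in a library, and the share of other cells was not tested.

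The comparison of P56 with P1 asked whether these genes become more or less accessible from birth to adulthood. None of the 9 passed edgeR's quasi-likelihood test with Benjamini-Hochberg adjustment over all regions at 0.05, where 2.53% of 33747 regions did. In these bulk libraries a change in the share of nuclei of a type and a change in accessibility per nucleus cannot be told apart. At an unadjusted p below 0.05 there were 2 of 9, Adrb1 and Adra1a, both higher at P56, against 21.6% of all regions (11.3% higher). The libraries of P1 and P56 did not overlap in 3 of 9 (Adra1a and Th higher, Adrb3 lower), against 24.1% of all regions (10.9% higher, 13.2% lower). DESeq2 and limma-voom also called none, though DESeq2 gave no adjusted p for Adra1a. In 8 of 9 genes, all but Adrb3, the log2 change was above 0 (49.3% of all regions), with a median of 0.31 against -0.01 for all regions. It was above 0 in 7 of 9 with library size scaling or loess offsets and in 5 of 9 with the peak table's scaling factors, under which the median of all regions was itself -0.30. It was above 0 in 5 of 9, with a median of 0.03, without P1 replicate 1 and P56 replicate 2 together. Among regions whose RefSeq start lay under a peak, the median change was 0.271 (6113 regions), and among those with no peak on the start it was -0.002 (9102 regions).

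**Figure D1:**
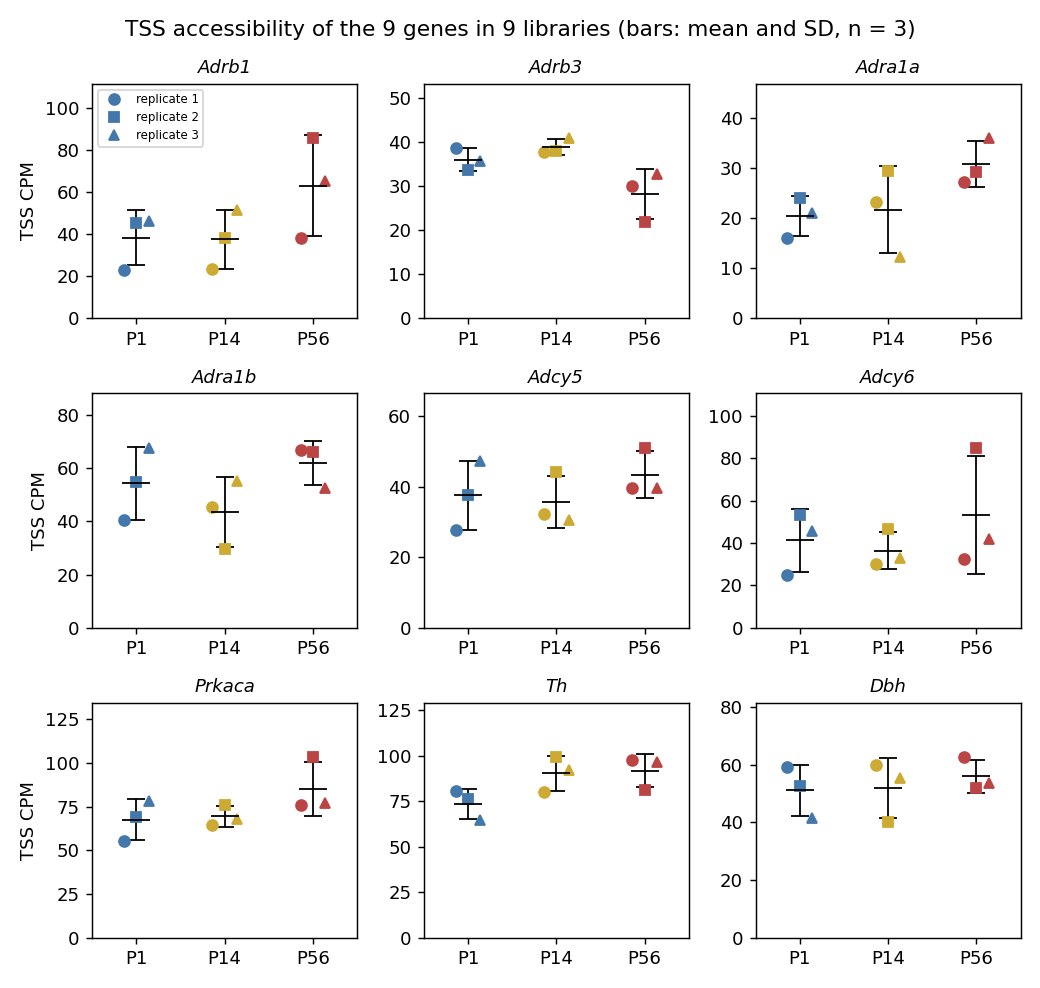
CPM at the TSS (vertical axis, linear from 0) of each of the 9 genes in the 9 libraries by stage; symbols are replicates, and the bar and whiskers are the mean and SD of 3 libraries. The P56 values of Adra1a and Th lie above all P1 values and those of Adrb3 below, while Adrb1 and Adcy6 spread widely within stages, up to 85.8 and 85.0 CPM in P56 replicate 2.

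Adrb1 (ENSMUSG00000035283, GRCm38.p6 chr19:56722117-56725150) encodes the beta-1 receptor, the main beta receptor of the ventricle. Its TSS had 23.0, 45.2 and 46.2 CPM in P1 replicates 1 to 3, 23.3, 38.0 and 51.2 at P14, and 37.9, 85.8 and 65.2 at P56. The stages overlapped: P56 replicate 1 lay below both higher P1 libraries. The means were 38.2 ± 13.1 (SD, n = 3), 37.5 ± 14.0 and 63.0 ± 24.0 CPM. P56 was 1.68-fold P1, a log2 change of 0.75 ± 0.280 (SE, 95% confidence interval 0.18 to 1.31), with an edgeR adjusted p of 0.123. Without P56 replicate 1 the change was 1.01 (adjusted p = 0.0329), without P56 replicate 2 it was 0.43, without P1 replicate 1 it was 0.45, and without both of these last libraries it was 0.12.

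Adra1a (ENSMUSG00000045875, chr14:66635251-66771240) encodes the alpha-1A receptor. Its TSS had 16.1, 24.0 and 21.0 CPM at P1, 23.3, 29.5 and 12.3 at P14, and 27.3, 29.3 and 36.1 at P56. Every P56 library was above every P1 library, and P14, whose lowest value rests on 6 reads, overlapped both. The means were 20.4 ± 3.99, 21.7 ± 8.73 and 30.9 ± 4.61 CPM (SD, n = 3). The change from P1 to P56 was 1.52-fold (log2 0.61 ± 0.261 SE, interval 0.08 to 1.1, edgeR adjusted p = 0.173). It was between 0.33 and 0.73 in all 20 alternatives tried. None called it, but DESeq2 gave no adjusted p for it (Wald test, unadjusted p = 0.0529).

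Adrb3 (ENSMUSG00000031489, chr8:27225776-27230845) encodes the beta-3 receptor, best known from fat cells. It was the only one of the 9 with a change below 0. It had 38.7, 33.6 and 35.7 CPM at P1, 37.8, 38.0 and 41.0 at P14, and 30.0, 21.8 and 32.6 at P56. All P56 libraries were below all libraries of the other stages. The means were 36.0 ± 2.56, 38.9 ± 1.80 and 28.1 ± 5.62 CPM (SD, n = 3), and P56 was 0.770 times P1 (log2 -0.38 ± 0.246 SE, interval -0.88 to 0.12, edgeR adjusted p = 0.374). The change was -0.21 without P56 replicate 2, the library with the lowest value. Got1l1, whose gene ends 1931 bp away, had a like change of -0.38 (adjusted p = 0.290), and the deposited counts carry no strand.

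Adra1b (ENSMUSG00000050541, chr11:43774605-43901250) encodes the alpha-1B receptor. Its TSS had 40.4, 54.8 and 67.7 CPM at P1, 45.5, 29.5 and 55.3 at P14, and 66.9, 66.2 and 52.4 at P56. The 3 stages overlapped, and P14 had the lowest mean (54.3 ± 13.7, 43.5 ± 13.0 and 61.9 ± 8.18 CPM; SD, n = 3). The change from P1 to P56 was 0.20 ± 0.223 (SE, interval -0.25 to 0.66, edgeR adjusted p = 0.619).

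Adcy5 (ENSMUSG00000022840, chr16:35154494-35305743) and Adcy6 (ENSMUSG00000022994, chr15:98589978-98610287) encode the main adenylyl cyclases of heart muscle, both inhibited by calcium. The Adcy5 TSS had 27.8, 37.7 and 47.3 CPM at P1, 32.2, 44.3 and 30.7 at P14, and 39.6, 51.2 and 39.6 at P56. Its means of 37.6 ± 9.72, 35.7 ± 7.44 and 43.5 ± 6.66 CPM (SD, n = 3) lay within the spread of the replicates. Adcy6 had 24.8, 53.4 and 45.7 CPM at P1, 30.0, 46.4 and 32.8 at P14, and 32.6, 85.0 and 41.9 at P56. A single library, P56 replicate 2, lay far above all others, so the SD at P56 (53.2 ± 28.0 CPM, n = 3) was the widest of the 9 genes. The change from P1 to P56 was 0.23 ± 0.245 for Adcy5 (SE, interval -0.27 to 0.72, edgeR adjusted p = 0.613) and 0.41 ± 0.288 for Adcy6 (interval -0.18 to 1.00, adjusted p = 0.412). The sign of Adcy6 turned to -0.13 without P56 replicate 2.

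Prkaca (ENSMUSG00000005469, chr8:83972978-83996444) encodes the alpha catalytic subunit of protein kinase A. Its TSS had 55.2, 69.2 and 78.2 CPM at P1, 64.4, 75.9 and 67.6 at P14, and 75.8, 103.1 and 76.9 at P56. P1 replicate 3 lay above P56 replicates 1 and 3. The means were 67.5 ± 11.6, 69.3 ± 5.94 and 85.2 ± 15.5 CPM (SD, n = 3), and the change from P1 to P56 was 0.35 ± 0.188 (SE, interval -0.03 to 0.73, edgeR adjusted p = 0.276). It was 0.18 without P56 replicate 2. Samd1, 1072 bp beyond the gene, followed it over the 9 libraries (r = 0.962, a description).

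Th (ENSMUSG00000000214, chr7:142892779-142899995) encodes tyrosine hydroxylase, which makes L-DOPA from tyrosine. Its TSS had 80.4, 76.1 and 64.6 CPM at P1, 80.0, 99.1 and 92.2 at P14, and 97.8, 81.3 and 96.7 at P56. Every P56 library was above every P1 library, although P56 replicate 2 (81.3) and P1 replicate 1 (80.4) nearly met, and P14 overlapped both. The means were 73.7 ± 8.17, 90.4 ± 9.70 and 91.9 ± 9.24 CPM (SD, n = 3). The change from P1 to P56 was 0.31 ± 0.173 (SE, interval -0.04 to 0.67, edgeR adjusted p = 0.290), and with the peak table's scaling factors it was 0.03.

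Dbh (ENSMUSG00000000889, chr2:27165507-27183204) encodes dopamine beta-hydroxylase, which makes noradrenaline from dopamine. Its TSS had 59.1, 52.8 and 41.5 CPM at P1, 60.0, 40.1 and 55.3 at P14, and 62.5, 51.9 and 53.6 at P56. The stages overlapped throughout, with means of 51.1 ± 8.93, 51.8 ± 10.4 and 56.0 ± 5.71 CPM (SD, n = 3). The change from P1 to P56 was 0.13 ± 0.213 (SE, interval -0.30 to 0.56, edgeR adjusted p = 0.750), and its sign changed with the scaling. Of the 15 sympathetic neuron and chromaffin markers in the table none passed the test of P56 with P1, and their summed CPM spanned 486 to 510 in P1 libraries, 517 to 584 in P14 and 439 to 550 in P56 libraries. A part of other cells in the Th and Dbh values was not tested.

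**Figure D2:**
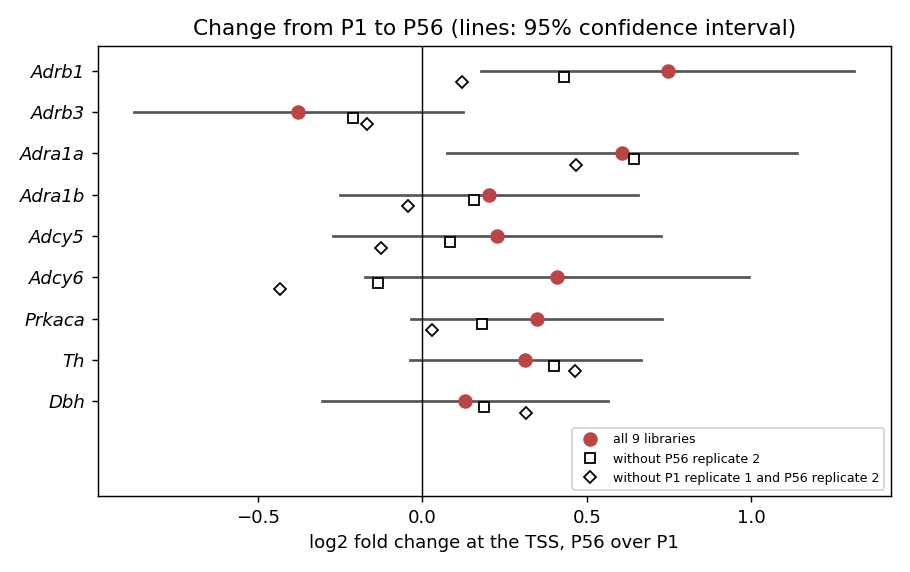
Log2 fold change at the TSS, P56 over P1 (horizontal axis), for the 9 genes with all 9 libraries (filled points, lines the 95% confidence interval) and with libraries left out (open symbols). The intervals of Adrb1 and Adra1a exclude 0 before adjustment, and Adrb1 moves from 0.75 to 0.12 and Adcy6 from 0.41 to -0.43 without P1 replicate 1 and P56 replicate 2.

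P14 was set against each end in turn, to place the changes before or after the second week. These comparisons share libraries with the one above and are given side by side with it. Against P1, none of the 9 genes was called by edgeR at P14 (0.0119% of all regions were) and none had an unadjusted p below 0.05 (8.59% of all regions). DESeq2 and limma-voom called none here, nor in the comparisons of this paragraph that follow. Log2 changes ran from -0.30 for Adra1b (adjusted p = 0.761) to 0.28 for Th (0.687), with a median of 0.03. Against P14, none was called at P56 (0.00296% of all regions) and 1 of 9 had an unadjusted p below 0.05 (10.1%, of which 6.04% higher): Adrb1, at 0.82 ± 0.322 (SE, adjusted p = 0.393), which was 0.50 to 1.11 when single libraries were left out. Adrb3 alone had no overlap between P14 and P56, being lower at P56 (6.96% of all regions), at -0.48 (adjusted p = 0.570). Adcy6 was at 0.60 (0.546), Adra1b at 0.51 (0.508), Adra1a at 0.48, Prkaca at 0.32 and Adcy5 at 0.31, while Th and Dbh lay within 0.09 of 0.

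The contrast of P14 with the mean of P1 and P56 asked whether the middle stage lay off the midpoint of the ends. It does not ask whether P14 differed from each end: Adrb1 was at -0.07 for P14 against P1. None of the 9 genes was called by edgeR (0.00889% of all regions were) and none had an unadjusted p below 0.05 (6.05%). The values ran from -0.45 for Adrb1 to 0.29 for Adrb3, with Adra1b at -0.41 and Adcy6 at -0.40. For Adrb1 the order of the stage means was thus P14, P1, P56, with P14 and P1 closer than their SDs. For Th it was P1, P14, P56, with P14 and P56 closer than their SDs. Adrb3 had its highest mean at P14 and its lowest at P56.

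Within stages the genes fell into those that were low in P1 replicate 1 and high in P56 replicate 2 and those that were not. Set against the other 2 libraries of P1, replicate 1 was lower at Adcy6 by 0.951 on the log2 CPM scale, and it was lower at Adrb1, Adcy5, Adra1b, Adra1a and Prkaca too. It was higher at Dbh (0.327), Th (0.194) and Adrb3 (0.153). P56 replicate 2 was higher than the other 2 at Adcy6 (1.166), Adrb1 (0.766), Prkaca (0.426), Adcy5 (0.356) and Adra1b (0.156). It was lower at Adrb3 (-0.487), Th (-0.254), Dbh (-0.153) and Adra1a (-0.093). Over regions with a peak on a RefSeq start the median difference was -0.192 in P1 replicate 1 and 0.35 in P56 replicate 2, and over those without it was 0.067 and -0.098. P56 replicate 1 also stood apart, with medians of -0.221 with a peak and 0.085 without. It lay below the other 2 at Adrb1 (-0.952), Adcy6 (-0.844), Adra1a (-0.241), Prkaca (-0.229) and Adcy5 (-0.177). It lay above them at Dbh (0.239), Adra1b (0.179), Adrb3 (0.156) and Th (0.139).

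**Figure D3:**
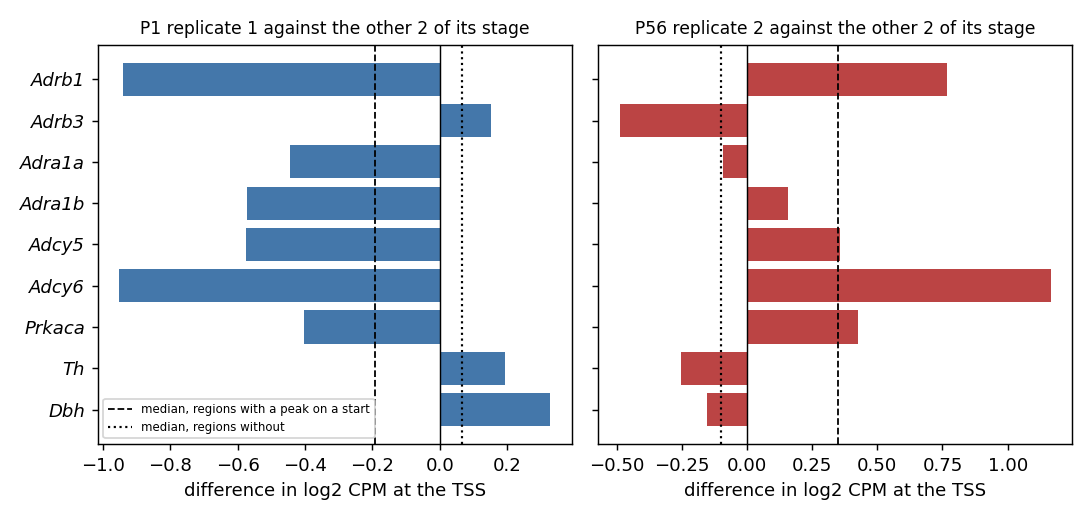
Difference in log2 CPM at the TSS (horizontal axis) between P1 replicate 1 (left) or P56 replicate 2 (right) and the mean of the other 2 libraries of its stage, as a bar per gene; the vertical lines are the medians of regions with (dashed) and without (dotted) a peak on a RefSeq start. Adcy6 and Adrb1 reach -0.951 and -0.94 on the left and 1.166 and 0.766 on the right, while Adrb3, Th and Dbh have the opposite sign in both.

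Over the 9 libraries the log2 CPM of these genes followed the share of peak counts in the top 10% of peaks to different degrees. Pearson's r with that peak share was 0.943 for Prkaca, 0.886 for Adrb1, 0.822 for Adcy6, 0.755 for Adcy5, 0.578 for Adra1a and 0.353 for Adra1b. For Adrb3 it was -0.800, for Th 0.264 and for Dbh -0.215. With the like share computed from the TSS table the order differed: r was 0.688 for Prkaca, 0.684 for Th, 0.588 for Adrb1, 0.577 for Adra1a, 0.464 for Adcy6 and 0.448 for Adcy5. For Adra1b it was 0.0865, for Dbh 0.0859 and for Adrb3 -0.614. These are descriptions over 9 libraries that differ in stage and depth, and what either share contributes to the stage differences was not tested. Prkaca also ran with Adcy5 (r = 0.908), Adcy6 (0.877) and Adrb1 (0.836) and against Adrb3 (-0.827), whereas Th and Dbh, the enzymes of one pathway, had an r of 0.223.

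Among 14515 other genes with a mean count of at least 20, the closest over the 9 libraries were Mlf2 (r = 0.983) and Smim11 (0.979) for Adrb1, Slc27a1 (0.991) and Gpr146 (0.989) for Prkaca, Plk2 (0.991) and Derl1 (0.981) for Adcy5, and Kiz (0.986) and Hinfp (0.982) for Adcy6. For Adrb3 they were Cacna1b (0.968) and Dclk1 (0.964), and for Adra1a Ago4 (0.946) and Golga4 (0.945). For Th they were Olfr328 (0.961) and Hps4 (0.960), and for Dbh Mir1943 (0.953) and Epsti1 (0.927). They were picked as the highest of many over the same few libraries, so high values are given by the choice.

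The deposited peak table offered a second readout at the same genes. Of its 25915 peaks, 14 lay in or within 5 kb of 7 of the 9 genes, and none lay there for Adrb3 or Th. None of the 14 was called by edgeR between P1 and P56 (0.444% of all peaks were), 1 had an unadjusted p below 0.05 (16% of all peaks, 6.27% higher), and 3 had no overlap between the libraries of P1 and P56 (18.6% of all peaks), all of them higher (8.54%). DESeq2 and limma-voom called none. Their median log2 change was 0.11, against 0.03 for all peaks.

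The peak with the largest difference lay at the start of Adra1a (chr14:66635997-66637466), 746 bp inside the gene. It had 21.4, 24.4 and 22.9 CPM at P1 (26, 22 and 28 reads), 26.3, 37.4 and 34.7 at P14, and 40.7, 44.3 and 48.4 at P56. All 3 stages were separate here, with P14 in the middle, though the P14 values rest on 15, 12 and 11 reads. Neither step was called by edgeR: 0.48 from P1 to P14 (adjusted p = 0.942) and 0.47 from P14 to P56 (0.508). The change from P1 to P56 was 1.94-fold (log2 0.95 ± 0.313 SE, interval 0.33 to 1.57, edgeR adjusted p = 0.119). It was between 0.84 and 1.24 over 20 alternatives, of which none called it (smallest adjusted p = 0.0547), and leaving out single libraries moved it only between 0.89 and 1.01. Peak and TSS counts may hold some of the same reads, so the peak is not independent of the TSS value of this gene.

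The peak over the start of Adrb1 (chr19:56721010-56723747) had 56.8, 85.4 and 87.6 CPM at P1, 54.4, 71.6 and 85.2 at P14, and 68.3, 117 and 102 at P56. It showed the same low P1 replicate 1 and high P56 replicate 2 as the TSS, and the stages overlapped. Its change was 0.33 (interval -0.19 to 0.85, edgeR adjusted p = 0.535) and was -0.05 without those libraries. The peak at the end of Dbh (chr2:27181210-27183831), 15703 bp from the gene's start, had 71.6, 66.6 and 70.4 CPM at P1, 92.9, 74.7 and 85.2 at P14, and 80.1, 112 and 90.2 at P56. P1 lay below both later stages in every library, and the change was 0.44 (interval -0.06 to 0.95, edgeR adjusted p = 0.379).

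Adcy5 had 4 peaks and Prkaca 3, and in each gene the peak over the gene's first base had the change nearest 0. The peak over the second start of Prkaca was at 0.19. The intervals of all these peaks included 0, so the order among them is a description. The Adcy5 start peak (chr16:35153965-35158240) had means of 114 ± 19.2, 114 ± 12.4 and 121 ± 6.65 CPM at P1, P14 and P56 (SD, n = 3), a change of 0.08. The Prkaca start peak (chr8:83971553-83975357) had means of 103 ± 9.95, 95.9 ± 13.7 and 91.7 ± 9.14 CPM, a change of -0.17 (interval -0.66 to 0.32). The Adcy5 peak at chr16:35281991-35284265 had the lowest change of the 14, -0.39 (edgeR adjusted p = 0.522). The peak over the end of Prkaca (chr8:83995504-83998234), which also covers the start of Samd1, was at 0.31 (adjusted p = 0.586), and at -0.36 without P1 replicate 1 and P56 replicate 2. All 3 Adra1b peaks, the Adcy6 peak (chr15:98607005-98608536) and the other peaks of Adcy5 and Prkaca lay between -0.11 and 0.23. The Adcy5 peak at chr16:35248077-35250436 was among them, at 0.23, with no overlap between the libraries of P1 and P56.

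**Figure D4:**
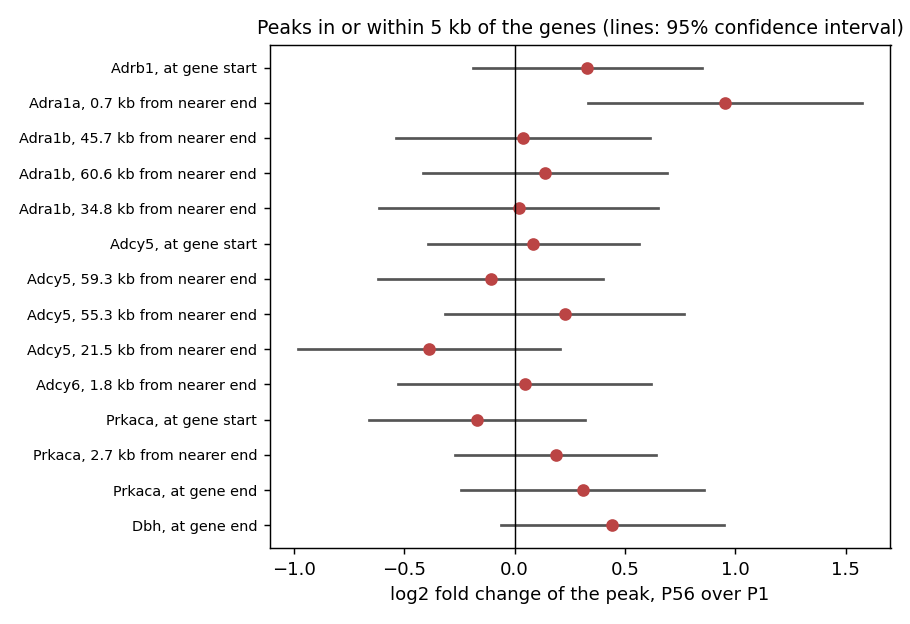
Log2 fold change, P56 over P1 (horizontal axis), of the 14 peaks in or within 5 kb of the genes, as points with the 95% confidence interval; labels give the gene and the distance to the nearer end of the gene. Only the interval of the Adra1a peak, 0.33 to 1.57, lies wholly to 1 side of 0 before adjustment.

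Of the 14 peaks, edgeR called none between P1 and P14 (0.00773% of all peaks were called), where none had an unadjusted p below 0.05 (6.04%). The libraries of P1 and P14 did not overlap in 4 of the 14 (13% of all peaks). The Adra1a and Dbh peaks were higher at P14 (7.39% of all peaks). An Adra1b peak (chr11:43820345-43821937) and a Prkaca peak (chr8:83975725-83982251) were lower (5.64%). Between P14 and P56 it called none (0.00773%), and 2 had an unadjusted p below 0.05 (14.7%, of which 6.54% higher), both higher and in Prkaca: the end peak at 0.76 and the peak at chr8:83975725-83982251 at 0.50, with a smallest adjusted p of 0.275. These 2 and the Adra1a peak, 3 in all, had no overlap between P14 and P56, all higher (19.1% of all peaks, 9.12% higher). DESeq2 and limma-voom called none in either comparison. Without P1 replicate 1 and P56 replicate 2, the Prkaca end peak was called between P1 and P14 (-0.76, adjusted p = 0.0382).

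RefSeq gave 8 start sites for 6 of the 9 genes, and Adrb3, Adra1a and Adcy6 were not matched. A peak covered 5 of the 8 starts, against 29.3% of all 32841 starts: Adrb1, Adcy5, both starts of Prkaca and the inner start of Adra1b. The nearest peak to the outer start of Adra1b was 27416 bp away, that to Th 17680 bp and that to Dbh 15703 bp. The covered starts of Adcy5 and Adrb1 had G+C shares of 78.0% and 74.0%, the inner and outer starts of Adra1b 72.8% and 41.6%, and the first and second starts of Prkaca 68.8% and 50.8%. Over all starts the median was 62.4% for those under a peak and 48.8% for the others. CRE cores were found at 4 of the 8 starts (17.8% of all starts), CCAAT boxes at 4 (33.9%), GC boxes at 5 (32.7%) and E-boxes (CANNTG) at 4 (66.2%). The TATA box TATAAA was in none of the 8 windows (12.4% of all starts), nor was the GATA site AGATAA (9.99%) or the M-CAT motif CATTCC (12.6%).

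The rest of the pathway was read from 5 lists of genes with textbook roles, none of them members of the 9. They filled 107 regions, of which edgeR called 7 higher at P56 than at P1 and 0 lower, or 6.54% against 1.72% of all regions. Their log2 changes were above 0 in 78 of 107 (49.3% of all regions), with a median of 0.26. The median was -0.01 over all regions and 0.271 over those with a peak on a RefSeq start. Between P1 and P14 no list gene was called, and between P14 and P56 Pnmt alone. The lists were chosen with earlier results of these data known, so the counts are descriptions.

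Of 20 receptor and G protein genes, 1 rose: Gnai2, an inhibitory G protein subunit, from 116 ± 7.71 to 167 ± 11.0 CPM (SD, n = 3), a log2 change of 0.53 ± 0.143 (SE, edgeR adjusted p = 0.0416). It was not called in any of the 9 fits that left out 1 library (adjusted p = 0.0604 to 0.150). Adrbk1 and Adrbk2, the receptor kinases that desensitise beta receptors, were at 0.52 (adjusted p = 0.0703) and 0.50 (0.128), and Adra2b, an alpha-2 receptor, at 0.58 (0.173). The list's median was 0.21, and 0.39 without P1 replicate 3.

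Of 37 cyclic AMP and kinase genes in 38 regions, 1 rose: Pde4a, a phosphodiesterase that breaks down cyclic AMP, from 137 ± 16.4 to 203 ± 16.4 CPM (SD, n = 3; log2 0.57 ± 0.141 SE, edgeR adjusted p = 0.0281). It kept its call in 4 of the 9 fits without 1 library, those without P56 replicate 1 or any of the P14 libraries. Prkar1a, a regulatory subunit of kinase A, was at 0.68 (adjusted p = 0.0648), Adcy9 at 0.66 (0.0901) and Pde4c at 0.46 (0.136). At an unadjusted p below 0.05, 5 of 38 regions were higher (11.3% of all regions) and 2 lower (10.3%). The change was above 0 in 25 of 38 (49.3% of all regions), over a range of -0.54 to 0.68. The median was 0.19. It was -0.06 with loess offsets, 0.05 with library size scaling, 0.10 without P56 replicate 2 and 0.08 without P1 replicate 1 as well. Of 11 alpha-1 effector genes edgeR called none, 4 had an unadjusted p below 0.05, all higher (11.3% of all regions), and the median was 0.27, or -0.03 with loess offsets and 0.14 with library size scaling. They were Dgkz, a diacylglycerol kinase (0.49, adjusted p = 0.0542), the IP3 receptor genes Itpr2 (0.39) and Itpr3 (0.62), and Plcb3, a phospholipase C (0.60).

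Of 16 kinase A target genes 4 rose (1.72% of all regions did), and 16 of 16 had a change above 0 (49.3%). Their median was 0.42, or 0.09 without P1 replicate 1 and P56 replicate 2. Regions with a peak on a RefSeq start had a median of 0.271. Tnni3, cardiac troponin I, went from 121 ± 41.3 to 259 ± 128 CPM (SD, n = 3; log2 1.11, edgeR adjusted p = 0.00896). Hspb6, a small heat shock protein, was at 1.02 (0.0375), Fxyd1, phospholemman, at 0.75 (0.0370) and Cacna1c, the L-type calcium channel, at 0.61 (0.0310). Tnni3 is also 1 of the cardiomyocyte markers whose sum is given above. All 4 calls were lost without P56 replicate 2 (Tnni3 0.62, adjusted p = 0.0795) and with loess offsets. The number called was 1 without P1 replicate 1 or 2 or P14 replicate 1 or 3, and 6 without P56 replicate 1.

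Of 22 genes of catecholamine synthesis, transport, breakdown and the lineage that uses them, 1 rose: Pnmt, which makes adrenaline from noradrenaline. Its TSS went from 34.8 ± 5.45 CPM at P1 and 47.4 ± 17.5 at P14 to 131 ± 42.3 at P56 (SD, n = 3), with log2 changes of 1.93 ± 0.223 against P1 (SE, edgeR adjusted p = 1.85e-05) and 1.50 against P14 (0.0258). The call against P1 held in all 9 fits without 1 library (1.62 to 2.09). Pnmt lies next to Tcap, a sarcomere gene, and their counts carry no strand. Th and Dbh, the earlier steps of the same synthesis, were at 0.31 and 0.13 above. Cyb561, which helps to renew the ascorbate that Dbh uses in vesicles, was at 0.55 (edgeR adjusted p = 0.0616). Pts, of tetrahydrobiopterin synthesis, was at 0.78, and Egr1, a transcription factor, at 0.59. The list's median was 0.03, and -0.10 with library size scaling.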

How the data were processed

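The authors deposited raw read counts in 2 tables, 1 by TSS region and 1 by peak of a common list. The submitters' processing notes name BWA 0.7.10, MACS 1.4.0 and featureCounts 1.4.2 among the tools, without their roles, and the build GRCm38. The width of a TSS region is not stated, and its mean count rose with gene length (Spearman 0.552 over 25372 regions), so levels were not compared between genes. Every deposited region had a mean count of at least 10 over the 9 libraries. Both tables were fitted whole with edgeR 4.0.16 (R 4.3.3): TMM scaling, the default filter by stage (33747 TSS regions and 25885 peaks remained, the 9 genes and 14 peaks among them), 1 coefficient per stage over all 9 libraries, the two-sided quasi-likelihood F test and Benjamini-Hochberg adjustment at 0.05. The fit was tested on simulated data. The alternatives were other scalings, filters and tools (DESeq2 1.42.0, limma 3.58.1), fits of the stages compared, a replicate block and left-out libraries.

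The genes, the lists and the tests were chosen with earlier results of these data known. Named genes were the 9, the 4 genes per list with the smallest unadjusted p for P56 against P1 and any further called gene, the 2 closest genes of each of the 9 by correlation of log2 CPM (prior count 2; those of Adra1b are not reported here), and every peak in or within 5 kb. Changes from P14 are named singly where their size exceeds 0.25, a limit set after the values were seen. The labels call the libraries biological replicates, but give no batch, sex or date. The p-values of the main fit set a change against the spread between these pooled samples. That spread was estimated over all 9 libraries, with information shared across regions. Gene positions, starts and sequences came from RefSeq (GRCm38.p6).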

Additional observations from a re-analysis of the deposited data

How the results depend on the processing

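Each stage had 3 libraries, and P14 was the shallowest. None of the 9 genes was called between P1 and P56 under 18 of 20 alternatives. Adrb1 was called with the replicate block (0.73, adjusted p = 0.0278) and without P56 replicate 1, so members called ran from 0 to 1 when libraries were left out. Among the peaks, 1 was called between P1 and P14 without P1 replicate 1 and P56 replicate 2, called both libraries below. The labels name nothing that pairs libraries by replicate number. Same-numbered deviations had r from -0.0748 to 0.219, and 5 of 9 libraries correlated best with their own number. Whether same-numbered libraries share a source was not tested. Causes of the changes below were not tested, and the fits with libraries left out also hold fewer samples.

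Between P1 and P56 at the TSS the sign turned for 4 of the 9 genes: Dbh (-0.0021 with library size, -0.17 with the other table's factors, -0.080 with loess offsets, -0.017 at a mean count of at least 20, 0.31 without both libraries, -0.0016 to 0.25 with single libraries left out), Adra1b (-0.068 with the other table's factors, -0.045 without both libraries, 0.0041 to 0.40 with single ones left out), Adcy5 (-0.052, -0.13 and 0.022 to 0.43 likewise), and Adcy6 (-0.43 without both, -0.13 to 0.67 with single libraries left out). Of the 5 peaks with a change of over 0.25 in size it turned for 2, the Prkaca end peak (-0.36 without both, -0.027 to 0.72) and the Adrb1 peak (-0.046 without both, 0.15 to 0.52). Of the 9 peaks within 0.25 of 0 it turned for 8. Between P14 and P56 it turned, among values over 0.25, for none of 7 genes and for 1 of 9 peaks, the Adcy6 peak (0.36, -0.10 without both, -0.097 to 0.60), and for all smaller values, those of 2 genes and 5 peaks. Between P1 and P14 it turned for none of the 2 genes and 8 peaks over 0.25 and for all 7 genes and 6 peaks within it. For P14 against the mean of P1 and P56 it turned for none of 4 genes over 0.25 and 2 of 5 within it.

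At the TSS, P56 against P1, 581 regions were called higher and 272 lower. The counts were 319 and 778 with library size, 204 and 2300 with the peak table's factors, 127 and 108 with loess offsets, 153 and 117 at a mean count of at least 20, 289 and 3 with DESeq2, 142 and 43 with only these stages and 1387 and 595 with the replicate block. With limma-voom 143 were lower. Leaving out libraries gave 122 to 1164 higher and 25 to 359 lower. The share called higher thus fell with library size and with the peak table's factors, which moved the median of all regions from -0.01 to -0.14 and -0.30.

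At peaks, P56 against P1, 55 were higher and 60 lower. The counts were 10 and 23 with loess offsets, 18 and 26 at a mean count of at least 20, 35 and 14 with limma-voom, 27 and 22 with only these stages, 273 and 411 with the replicate block, 394 and 297 without both libraries, and 0 to 271 and 0 to 378 with libraries left out. Lower peaks were 2 with the TSS table's factors and 13 with DESeq2.

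For P56 against P14 at the TSS, 1 was higher and 0 lower. Higher regions were 0 with DESeq2's size factors, at a mean count of at least 20 and with limma-voom, 10 with library size, 17 with the other table's factors, 23 with only these stages, 68 with the replicate block, 19 without both and 0 to 98 with libraries left out. Lower ones were 1, 5, 8 and 2 with library size, the other factors, the block and without both, and 0 to 3 with libraries left out. At peaks 2 were higher and 0 lower, with 0 higher under the other table's factors, loess offsets, a mean count of at least 20, DESeq2 and limma-voom, 11 and 3 with only these stages, 23 and 18 with the block, and 0 to 130 and 0 to 162 with libraries left out.

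List genes called higher were 1 of the receptor list (0 with library size, loess offsets and each library left out), 1 of the cyclic AMP list (0 with library size and loess offsets, 2 without both, 0 to 3), 0 of the alpha-1 list (1 without both, 0 to 1), 4 of the kinase A targets (2 with library size, 0 with loess offsets and without both, 0 to 6) and 1 of the catecholamine list (2 without both, 1 to 2). Taking peaks within 50 kb gave 38 at all 9 genes and again no call.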
